A study of Mus musculus with 100 samples.

Results

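The promoters of the zinc finger genes named Zfp were followed in chromatin immunoprecipitation sequencing (ChIP-seq) of mouse bone marrow-derived macrophages (BMDM). The members were every region whose nearest annotated gene is called Zfp followed by digits alone and whose centre lies no more than 500 bp from that gene's transcription start site (TSS). The table with the HDAC3 inhibitor RGFP966 held 230 such windows of 1000 bp, belonging to 193 genes, among 29767 regions, of which 8204 were promoters of other genes under the same distance limit. The same 230 windows were counted in the Pgc1b table, the WT and NKO table held 243 narrower regions of 203 genes, and the 12 tables of factor peaks held from 38 to 130. In all 15 tables together, 260 Zfp genes had a promoter region. The windows just inside the distance limit (Zfp954 at 481 bp and Zfp54 at 473 bp from the TSS) averaged 34.4 and 23.3 H3K27ac tags per 10 M, and those just outside it (Zfp1 at 502 bp and Zfp983 at 509 bp) averaged 137 and 43.9.

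Groups had 2 libraries each, labelled as replicates. H3K27ac, a histone mark of active promoters and enhancers, was measured in wild type C57BL/6 BMDM given DMSO with vehicle (DMSO Veh), DMSO with Kdo2-lipid A (DMSO KLA), or RGFP966 with KLA (RGFP966 KLA); no group received the inhibitor without KLA. KLA is a purified form of the lipid A end of lipopolysaccharide that activates TLR4. The paper added RGFP966 at serum starvation, before KLA, so a change with RGFP966 compares separate cells. The mark was also measured with Veh and KLA in BMDM labelled WT, which are NCoR flox/flox, and NKO, which are NCoR flox/flox with LysMCre, and in PGC1b flox/flox cells without Cre (flox) and with LysMCre (flox Cre). LysMCre is a Cre recombinase driven by the lysozyme 2 gene of myeloid cells, so controls of both pairs carried the floxed alleles without Cre. NCoR, HDAC3, p65, Fosl2, PU.1, PGC1b, ERK1 and p300 were measured in wild type BMDM with Veh and KLA. KLA was given for 6 h where the label states a time, and the p300 vehicle group is labelled 0 h. PGC1b was also measured in wild type cells given DMSO with Veh, DMSO with KLA, or KLA with an ERK inhibitor (ERKi). NCoR was measured with KLA and ERKi as well, but without a DMSO group. ERK1 and p300 were also measured in wild type bone marrow cells at day 0 and day 4 of osteoclast differentiation. The 70 libraries with counts held 4.30 to 21.5 M tags, and the H3K27ac libraries 11.5 to 19.6 M. Values below are tags per 10 M tags of the library (M, mega), fold changes are on the log2 scale, and a region was called changed when it differed by more than 2-fold at an adjusted p under 0.05 in edgeR's quasi-likelihood test with Benjamini-Hochberg adjustment over all tested regions of its table. With 2 libraries a group, p-values measure the spread between these libraries. Of 8 macrophage marker genes, 6 had a promoter window in the 1000-bp tables, as had 1 of 4 osteoclast, 1 of 4 neutrophil and 1 of 2 NK cell markers, and none of the T cell, B cell or fibroblast markers.

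Most Zfp proteins hold tandem C2H2 zinc fingers, each a short fold around a zinc ion that can contact DNA or RNA. Many carry an N-terminal KRAB domain, which recruits TRIM28 (KAP1) and, through it, the histone methyltransferase SETDB1 and HP1 proteins, and so silences transposable elements and other targets. Genes with KRAB lie in clusters of recent tandem duplication, whereas many Zfp genes without it encode conserved transcription factors or RNA-binding proteins. NCoR is a corepressor that carries the deacetylase HDAC3 to chromatin, p300 is an acetyltransferase that places H3K27ac, and p65 is the NF-κB subunit that TLR4 activates.

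The sequences below belong to the 6 promoters on which the results turn most, from 250 bases before to 50 bases after the RefSeq start (GRCm38.p6, the assembly named mm10 in the files). Zfp143, a DNA-binding activator of many housekeeping promoters, had the lowest p-value among windows that fell with RGFP966. Zfp800 and Zfp281 gained the mark with KLA in DMSO and were lower in RGFP966 KLA than in DMSO KLA. Zfp719 and Zfp456, both with KRAB, gained the mark and several factors with KLA, and Zfp326, an RNA-binding component of a complex at elongating RNA polymerase II, lost them. Capitals mark GC boxes (GGGCGG, or CCGCCC on the other strand), CCAAT boxes (CCAAT), and the inner 8 letters of the NRF1 motif (CGCATGCG) and of the CGCG element (CTCGCGAG). The stretches are chr7:110061452-110061751 on the plus strand for Zfp143, chr6:28261875-28262174 on the minus strand for Zfp800, chr7:43579336-43579635 on the plus strand for Zfp719, chr1:136624651-136624950 on the plus strand for Zfp281, chr13:67375714-67376013 on the minus strand for Zfp456 and chr5:105876318-105876617 on the plus strand for Zfp326.
Zfp143: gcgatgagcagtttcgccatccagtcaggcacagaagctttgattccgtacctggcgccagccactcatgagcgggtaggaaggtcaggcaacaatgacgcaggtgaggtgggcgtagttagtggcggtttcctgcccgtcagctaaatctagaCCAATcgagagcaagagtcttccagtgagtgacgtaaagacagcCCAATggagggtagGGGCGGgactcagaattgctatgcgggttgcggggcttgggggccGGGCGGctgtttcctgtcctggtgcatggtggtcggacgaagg
Zfp800: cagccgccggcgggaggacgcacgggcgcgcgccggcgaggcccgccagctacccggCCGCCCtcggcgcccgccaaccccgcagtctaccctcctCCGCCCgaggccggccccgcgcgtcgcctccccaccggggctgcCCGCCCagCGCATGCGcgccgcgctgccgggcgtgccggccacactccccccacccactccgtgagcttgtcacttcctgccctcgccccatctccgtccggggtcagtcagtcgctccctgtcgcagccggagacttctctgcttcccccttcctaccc
Zfp719: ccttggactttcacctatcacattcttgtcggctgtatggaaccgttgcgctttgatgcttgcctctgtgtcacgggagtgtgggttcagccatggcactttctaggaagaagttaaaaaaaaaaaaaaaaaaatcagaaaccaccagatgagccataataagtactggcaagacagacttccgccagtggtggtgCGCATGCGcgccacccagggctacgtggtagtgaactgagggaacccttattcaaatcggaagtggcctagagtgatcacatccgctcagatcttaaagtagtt
Zfp281: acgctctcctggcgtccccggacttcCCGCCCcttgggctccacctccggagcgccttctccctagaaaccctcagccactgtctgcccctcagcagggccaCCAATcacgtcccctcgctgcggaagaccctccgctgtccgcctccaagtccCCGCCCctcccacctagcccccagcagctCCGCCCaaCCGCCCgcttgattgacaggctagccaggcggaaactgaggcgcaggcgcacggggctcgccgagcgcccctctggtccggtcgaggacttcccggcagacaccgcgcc
Zfp456: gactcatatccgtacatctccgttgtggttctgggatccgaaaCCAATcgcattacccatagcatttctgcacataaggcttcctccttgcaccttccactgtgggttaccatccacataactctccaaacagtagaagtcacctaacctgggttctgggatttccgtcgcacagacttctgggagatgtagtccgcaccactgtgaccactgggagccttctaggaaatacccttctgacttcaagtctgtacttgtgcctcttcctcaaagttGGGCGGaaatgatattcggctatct
Zfp326: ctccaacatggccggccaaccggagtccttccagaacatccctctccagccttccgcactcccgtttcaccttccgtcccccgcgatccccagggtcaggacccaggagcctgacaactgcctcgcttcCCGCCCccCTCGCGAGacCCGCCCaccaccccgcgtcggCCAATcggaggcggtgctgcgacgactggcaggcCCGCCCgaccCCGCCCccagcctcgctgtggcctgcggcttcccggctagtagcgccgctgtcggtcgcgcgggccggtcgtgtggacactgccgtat

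The CGCATGCG word lies 102 bases before the start of Zfp800 and 54 bases before that of Zfp719, and the CTCGCGAG word 113 bases before that of Zfp326. Zfp143 shows 2 CCAAT boxes, 96 and 52 bases before its start, and Zfp719 shows neither a GC box nor a CCAAT box. Over the 206 RefSeq promoters that belong to the Zfp genes with a window, searched on both strands, 47.6% held a GC box against 65.9% of the 7491 promoters of other genes with a window and 35.7% of all 32851 mouse promoters. The share was 35.3% in Zfp genes with a KRAB pattern and 62.5% in those without. CCAAT boxes went the other way, at 49.0% of Zfp, 40.1% of other and 37.4% of all promoters. The ETS core CCGGAAG was in 21.4%, 18.2% and 8.86%, CGCATGCG in 4.85%, 4.27% and 1.87%, the cAMP response element TGACGTCA in 4.37%, 3.07% and 1.79%, the AP-1 motif TGANTCA in 3.40%, 5.01% and 7.81%, and the TATA box TATAAA in 5.83%, 6.45% and 13.6%. The motif bound by ZFP143 itself was in 4.37%, 2.64% and 1.01%, the NF-κB motif in 0.971%, 0.467% and 0.411%, AAGATGG, bound by YY1, in 8.25%, 6.89% and 6.34%, and CTCGCGAG in 0.971%, 2.28% and 0.919%. Among Zfp promoters CTCGCGAG was found only where KRAB was not, in 2.27% of the promoters without a KRAB pattern, and CGCATGCG in 9.09% of those promoters against 1.72% with KRAB. These words are descriptions of the sequence and were not tied to a bound factor.

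Of the 193 genes, 110 had a protein model with a KRAB pattern, 81 had none and 2 had no protein model. The median number of fingers was 12 with KRAB and 7 without, the highest was 33, and in 6 genes no finger was matched. Chromosome 7 carried 58 windows of 49 genes, chromosome 13 had 34 of 26, chromosome 17 had 25 of 21 and chromosome 8 had 22 of 18. The annotation placed 194 windows at a promoter, 21 in an intron, 12 in a 5′ UTR and 1 each in an exon, a 3′ UTR and a non-coding transcript. The gene type was protein-coding for 229 windows and pseudogene for 1. A single window was held by 159 genes, 2 windows by 31 and 3 by 3, and windows of a gene overlap and share reads. Zfp windows held 54.2% G and C against 59.1% at other promoters, with 51.5% for KRAB genes and 60.7% for the rest. A 50-base stretch that occurs elsewhere in the genome was found in 63 windows, 27.4%, against 16.2% of other promoters, and in 37.6% of the windows of KRAB genes against 12.6% of the rest. At such stretches, reads of near-identical paralogs may not be told apart, so the Zfp456 window, 25.4% of whose 50-base stretches recur, is uncertain in this respect, while none did in the windows of Zfp143, Zfp800, Zfp719, Zfp281 and Zfp326.

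H3K27ac at Zfp windows was slightly lower than at other promoters in each of the 14 libraries with 1000-bp windows. The median Zfp window held 82.6 and 76.3 tags in DMSO Veh, 73.2 and 59.7 in DMSO KLA and 48.7 and 42.0 in RGFP966 KLA, against 88.0 and 87.2, 86.1 and 68.2, and 54.6 and 48.1 at other promoters. The ratio of the medians ran from 0.805 to 0.939 over those libraries. In the WT and NKO table, whose regions are narrower, values per 1000 bp gave a ratio that ran from 1.11 to 1.27. Averaged over libraries, the median window of a KRAB gene held 52.8 tags and that of a Zfp gene without KRAB 98.8.

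Fewer Zfp genes than other genes with an H3K27ac window had a promoter peak of each of the 8 factors. NCoR peaks were at 72 of 193 Zfp genes, 37.3%, against 52.9% of 7385 other genes, and HDAC3 peaks at 70, 36.3% against 49.9%. The shares were 43.5% and 52.1% for p65, 19.2% and 25.5% for Fosl2, 43.5% and 47.8% for PU.1, 30.6% and 41.5% for PGC1b, 26.4% and 35.7% for ERK1, and 38.3% and 49.8% for p300. None of the 8 was found at 47 Zfp genes, 24.4% against 14.7% of other genes, and all 8 at 8, 4.15% against 8.31%. Within the family, NCoR was at 29.1% of KRAB genes and 49.4% of the rest, HDAC3 at 23.6% and 54.3%, and p300 at 33.6% and 45.7%. PU.1, the lineage factor of macrophages, was the one factor with the order turned, at 45.5% of KRAB genes and 40.7% of the rest. The lower H3K27ac and the more frequent repeated stretches of KRAB windows move with these shares, and their part was not tested.

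**Figure D1:**
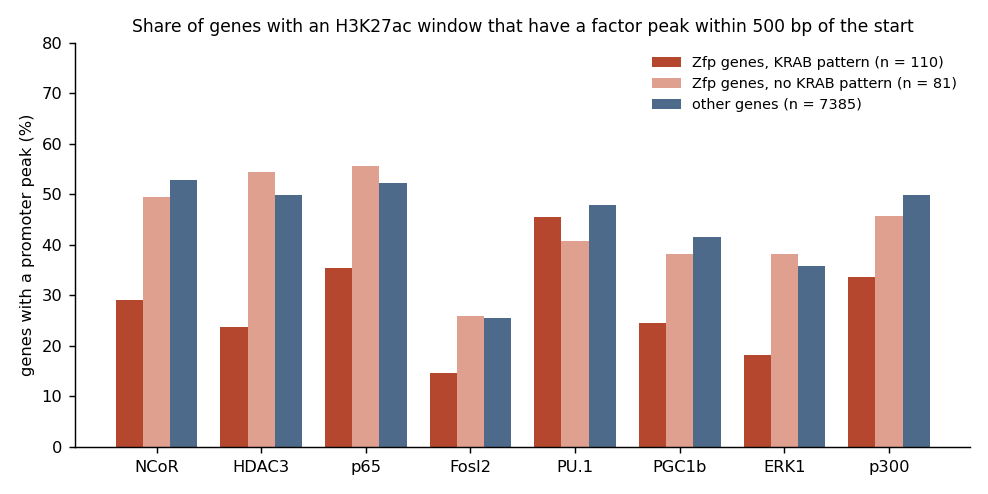
Share of genes with an H3K27ac promoter window that also had a peak of each factor (percent, vertical axis), for 110 Zfp genes with a KRAB pattern, 81 without and 7385 other genes. HDAC3 shows the widest gap, 23.6% against 54.3% between both Zfp groups, and PU.1 the order turned.

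RGFP966 with KLA, set against DMSO with KLA, lowered H3K27ac at 43 of the 220 Zfp windows tested, in 38 genes, and raised it at 4. The other Zfp windows held fewer than 16 tags in every library of this table and were not tested. That is 19.5% lower and 1.82% higher, against 27.1% lower and 3.69% higher at other promoters, and 9.53% lower and 26.9% higher over all 25045 regions tested. The median change was −0.57 at Zfp windows, of which 182 lay below 0, and −0.67 at other promoters. The difference of medians, 0.10, does not depend on how libraries are scaled. It was 0.16 without the first DMSO KLA library and 0.18 without the first RGFP966 library. The split depends on the scaling: with TMM over all regions 87 windows were lower and 2 higher, while TMM over promoters alone, which sets the typical promoter to no change, left 2 lower and 11 higher. The 43 calls are thus relative to library depth. Of the 38 genes with a lower window 14 carried KRAB.

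**Figure D2:**
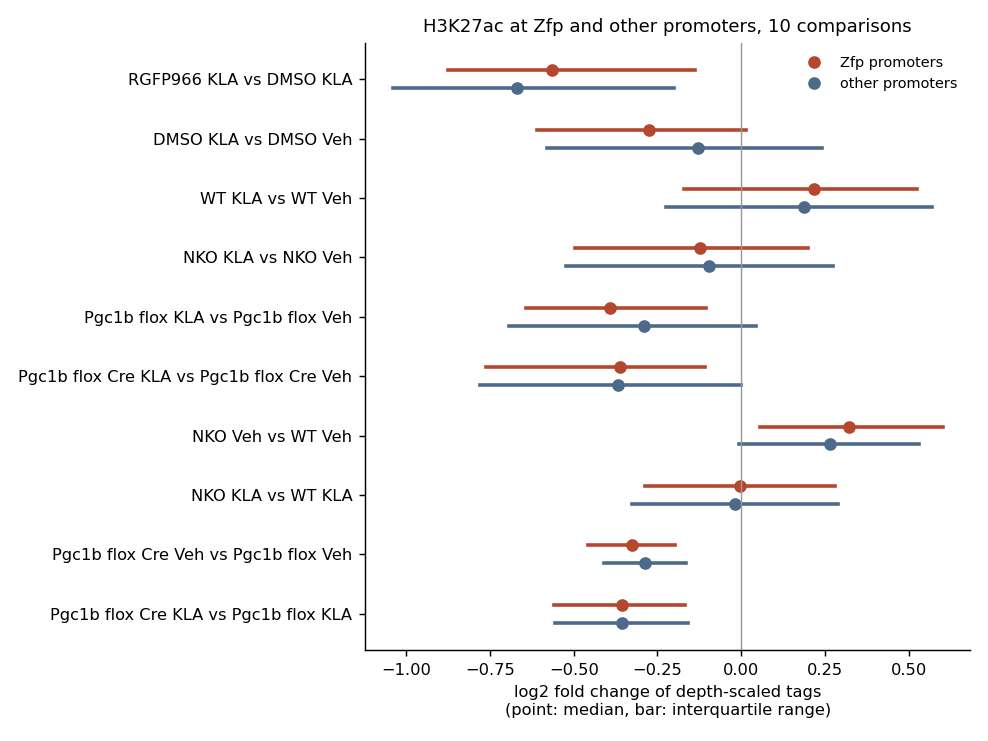
Median (point) and interquartile range (bar) of the log2 fold change in H3K27ac for Zfp and other promoters in 10 comparisons. Both lie lowest with RGFP966, at −0.57 and −0.67, and their bars overlap in every comparison.

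The change was larger at highly marked Zfp windows. With windows sorted into quartiles by their mean level over all promoters, the median change was −0.12 in the lowest quartile (66 Zfp windows), −0.55 in the second (59), −0.65 in the next (64) and −0.90 in the highest (31), where 13 fell. Other promoters of the same quartiles had medians of −0.39, −0.64, −0.74 and −0.79, and 19.8%, 26.04%, 31.6% and 31.0% of them fell. Windows of KRAB genes, with their lower level, had a median of −0.49 and 18 of 126 fell, and those without KRAB had −0.68 and 25 of 92 fell. Chromosome 17 stood apart, as noticed after the values were seen: none of its 24 Zfp windows was called, at a median of −0.10, whereas the 305 other promoters of that chromosome had a median of −0.64 with 85 lower. With TMM, 5 of the 24 were lower and the medians were −0.44 and −0.98. Medians on chromosomes 7, 8 and 13 were −0.64, −0.75 and −0.66, beside −0.66, −0.73 and −0.63 at the other promoters there. Windows with and without repeated stretches had the same median of −0.57, with 4 of 58 and 39 of 162 lower.

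**Figure D3:**
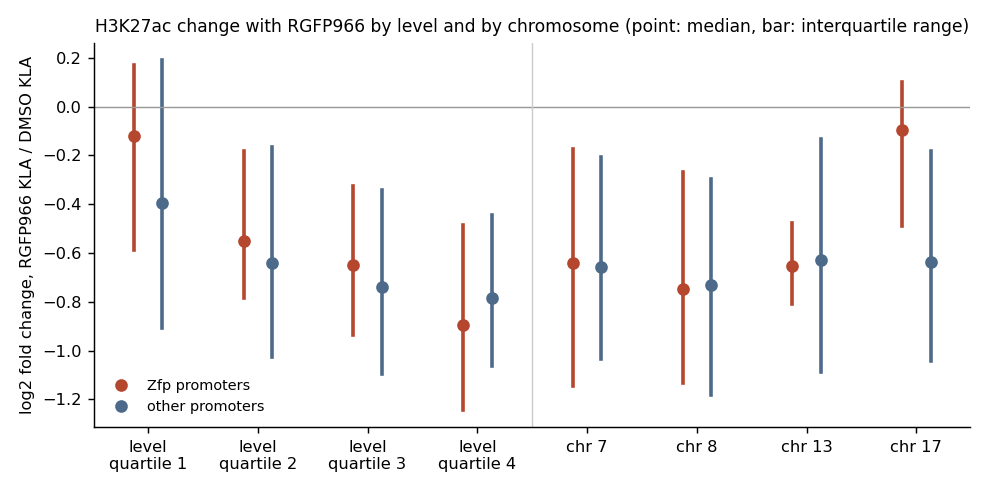
Median (point) and interquartile range (bar) of the log2 fold change of RGFP966 KLA over DMSO KLA, by quartile of the mean H3K27ac level (1 lowest) and by chromosome. Zfp medians run from −0.12 to −0.90 over the quartiles, and chromosome 17 has −0.10 beside −0.64 for other promoters.

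Zfp143 had the lowest p-value among the windows that fell. At chr7:110060978-110061978 it held 387 and 345 tags in DMSO Veh, 407 and 354 in DMSO KLA and 118 and 74.5 in RGFP966 KLA. Both RGFP966 libraries lay far below all 4 others, and the vehicle and KLA libraries overlapped. The change was −1.98 (SE 0.21, adjusted p = 1.7e-18), and the overlapping second window, 395 bp inside the gene, changed by −1.37. KLA alone moved the first window by 0.06.

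Zfp800 at chr6:28261470-28262470 held 166 and 166 tags in DMSO Veh, 599 and 494 in DMSO KLA and 202 and 150.4 in RGFP966 KLA. KLA raised it by 1.72 (SE 0.20, adjusted p = 3.6e-16), and with RGFP966 it was lower by 1.63 on the log2 scale, a change of −1.63 (SE 0.20, adjusted p = 2.5e-14). The RGFP966 libraries thus lay on either side of the vehicle values. Zfp281, a transcription factor of pluripotent cells, held 61.5 and 65.4, then 148 and 137, then 71.7 and 50.8. It rose by 1.17 (SE 0.24, adjusted p = 5.7e-06) with KLA and changed by −1.22 (SE 0.24, adjusted p = 1.6e-06) with RGFP966, again with the inhibitor libraries around the vehicle values. Zfp513 held 245 and 233, then 362 and 290.3, then 111 and 111, so that both inhibitor libraries were below vehicle too, and its change was −1.55 (SE 0.21, adjusted p = 4.1e-12).

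Other KLA-gained Zfp windows were not called lower with RGFP966. Zfp719 at chr7:43579121-43580121 held 44.0 and 41.0 tags in DMSO Veh, 225 and 181 in DMSO KLA and 209 and 184 in RGFP966 KLA. It rose by 2.26 (SE 0.25, adjusted p = 1.2e-18) with KLA and changed by −0.05 with RGFP966 (adjusted p = 0.83), where the libraries overlapped. Zfp456 at chr13:67375282-67376282 held 42.4 and 36.6, then 100.4 and 86.7, then 81.0 and 54.2, a rise of 1.24 (SE 0.26, adjusted p = 1e-05) and a change of −0.47 with RGFP966 (adjusted p = 0.077), although both inhibitor libraries lay below both DMSO KLA libraries. Zfp558, with 188 and 135 in DMSO KLA, held 119.8 and 98.2 with RGFP966, also without overlap, a change of −0.57 (adjusted p = 0.018) that stayed under 2-fold. Zfp326 at chr5:105875868-105876868 held 230.1 and 250.3, then 101 and 87.5, then 90.2 and 90.8. Its KLA change was −1.34 (SE 0.22, adjusted p = 9.7e-09), and RGFP966 KLA differed from DMSO KLA by only −0.06.

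**Figure D4:**
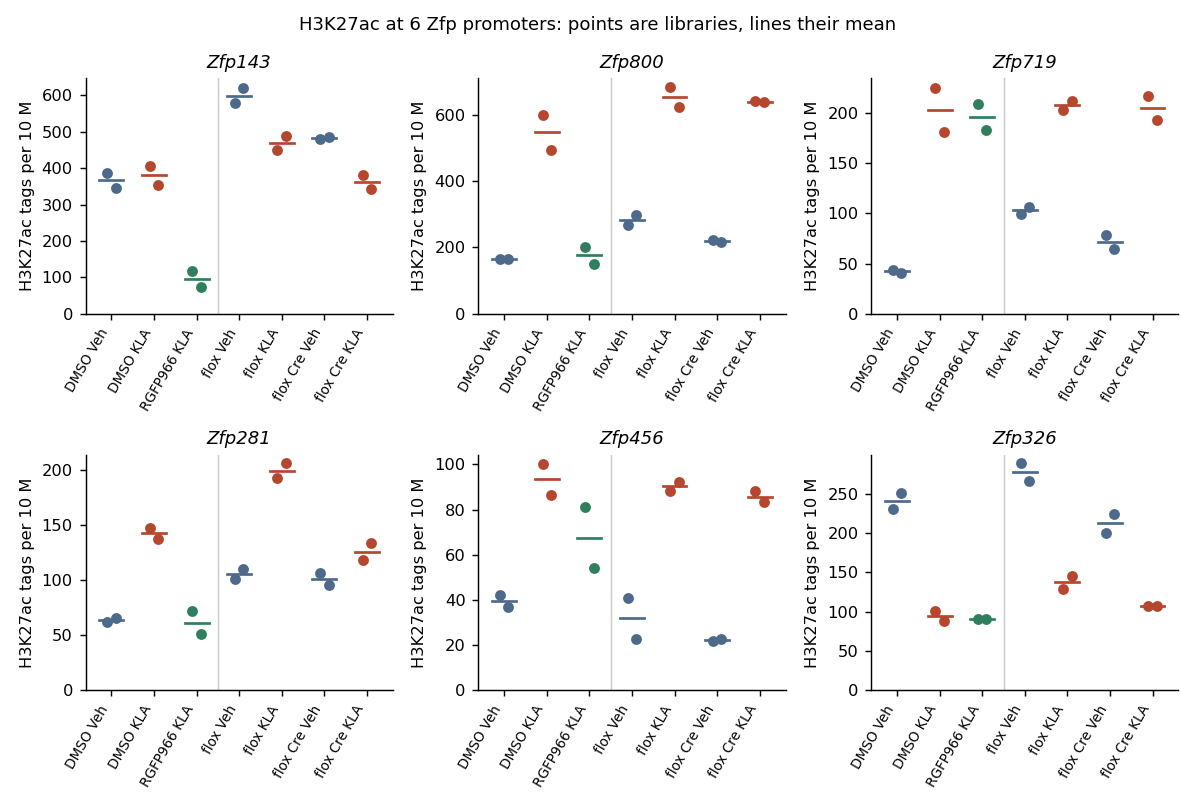
H3K27ac tags per 10 M (vertical axis, from 0) in each library (points) and their mean (lines) at 6 Zfp promoters, with the RGFP966 table left and the Pgc1b table right of the grey line. Zfp143, Zfp800 and Zfp281 drop with RGFP966, Zfp719 stays near 200, and Zfp326 is lower with KLA in every setting.

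The 4 Zfp windows raised by RGFP966 were those of Zfp516, Zfp827, Zfp692 and Zfp9. Zfp516, a cofactor of brown fat gene expression with 3 windows here, was called at 1 of them. It held 128 and 129 tags in DMSO Veh, 73.2 and 59.7 in DMSO KLA and 210.0 and 165 in RGFP966 KLA, so the inhibitor libraries were above all others (change 1.49, SE 0.23, adjusted p = 1.8e-09). Zfp827 was sparse, at 5.81 and 4.36, then 4.53 and 0.842, then 13.2 and 14.9 (change 2.24, SE 0.68, adjusted p = 0.002). Zfp692 held 9.14 and 14.0, then 3.24 and 5.05, then 16.5 and 8.13, so the second inhibitor library lay below both vehicle libraries. The call at Zfp692, like that of Zfp9, was lost with TMM, and also without the first DMSO KLA library (adjusted p = 0.139) or the first RGFP966 library (adjusted p = 0.336).

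Among Zfp genes of known role, picked for that role and not for their values, 10 RNA-binding or protein quality control genes included 7 with a window, of which Zfp207, Zfp346 and Zfp638 fell with RGFP966 (median −0.82). These and the following counts stand beside 27.1% lower and a median of −0.67 at other promoters, and 9.53% lower over all regions. Zfp346 lost its call without the first DMSO KLA library (adjusted p = 0.0788) or the second RGFP966 library (adjusted p = 0.0743), and Zfp638 came to −0.84 and −0.83 without the same libraries, under 2-fold. Zfp207, a spindle assembly factor that binds BUB3, held 526.5 and 419.9 tags in DMSO KLA and 196 and 165 with RGFP966, without overlap. Zfp36 (tristetraprolin), which speeds the decay of cytokine mRNAs, held 339 and 351 in DMSO Veh, 526 and 462 in DMSO KLA and 338 and 255 with RGFP966. Its groups did not overlap, and its change of −0.74 (adjusted p = 0.00036) stayed under 2-fold. Of 12 regulators without KRAB, 9 genes had a window and Zfp143, Zfp281 and Zfp451, a SUMO ligase, fell (median −0.90). Without the second RGFP966 library Zfp451 came to −0.69 and Zfp281 to −0.99, and without the first DMSO KLA library Zfp451 came to −0.96, none of them called. Of 10 genes listed as KRAB or SCAN-KRAB, 6 had a window and Zfp110, Zfp445, Zfp568 and Zfp746 fell in all 5 of their tested windows, although no KRAB pattern was matched in the protein model of Zfp746. Zfp445, which guards imprinted loci, held 113 and 68.2 in DMSO KLA and 41.5 and 40.6 with RGFP966 (change −1.16, adjusted p = 2.4e-05, and −0.73 without the first DMSO KLA library), and Zfp568, also a KRAB repressor of an imprinted gene, 139 and 84.2 and then 42.1 and 31.2 (change −1.62, adjusted p = 2.9e-09). In both, inhibitor and DMSO libraries did not overlap.

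Partners of KRAB proteins were lower too, relative to library depth. Of 17 promoter windows of 14 corepressor and heterochromatin genes, 9 were lower and none higher with RGFP966, at a median of −1.01, beside 27.1% of other promoters at a median of −0.67 and 9.53% of all regions. TMM over all regions gave 16 lower. Counts with TMM over promoters alone, which left far fewer Zfp windows lower, were not made for these genes. Suv39h1, an H3K9 methyltransferase, held 45.3 and 37.0 tags in DMSO KLA and 7.24 and 11.5 with RGFP966 (change −2.14), and Smarcad1, a remodeller that works with TRIM28, 165 and 113 and then 37.5 and 35.9 (change −1.93). Setdb1 changed by −0.97 and was not called. Other zinc finger families gave medians nearer to the Zfp windows, at −0.64 for 22 Zbtb windows with 4 lower, −0.54 for 11 Zscan and Zkscan windows with 3 lower, and −0.44 for 14 Klf windows with 2 lower and 1 higher.

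With KLA, some Zfp genes gained and others lost H3K27ac in several settings, and the number of losses varied more between settings. Zfp719 was called higher in 5 settings, Zfp800 in 4 and Zfp456 in 3. Zfp13 and Zfp386 were called lower in 4, and Zfp101, Zfp367, Zfp516, Zfp704 and Zfp825 in 3. In DMSO, 5 of 220 windows were higher and 18 lower, 2.27% and 8.18%, against 5.20% and 11.8% of other promoters and 6.73% and 28.1% of all 25045 regions. The medians were −0.27 and −0.13. TMM turned the split to 15 higher and 2 lower, and without the first DMSO KLA library 4 were higher and 32 lower. In Pgc1b flox cells 3 of 227 were higher and 21 lower, 1.32% and 9.25%, against 2.91% and 13.9% of other promoters and 5.22% and 25.6% of 25197 regions, with medians of −0.39 and −0.29 and a TMM split of 8 and 5. In flox Cre cells 3 were higher and 29 lower, 1.32% and 12.8%, against 3.06% and 16.6% and, over all regions, 4.18% and 32.5%, with medians of −0.36 and −0.37 and a TMM split of 9 and 4. The RGFP966 and DMSO comparisons share the DMSO KLA libraries and are set side by side only.

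Among the narrower WT and NKO regions, 7 of 215 at Zfp promoters were higher and 1 lower with KLA in WT cells, at a median of 0.22 against 0.19 for other promoters, of which 4.68% were higher and 2.31% lower, while 6.49% and 3.72% of all 18504 regions were. Without the second WT KLA library 4 were called, and 1 and 3 without the first and the second WT Veh library. TMM gave 4 higher and 2 lower. In NKO cells 2 were higher and 8 lower, at −0.12 against −0.10, beside 2.04% and 4.33% of other promoters and 2.75% and 7.96% of all regions. Without the second NKO KLA library 6 were called, and TMM gave 4 higher and 3 lower.

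Zfp719 was called higher in all 5 settings. In flox cells it held 99.3 and 107 tags with Veh and 203 and 212 with KLA (1.01, SE 0.14, adjusted p = 5.5e-12), which came to 0.98 without the second flox KLA library and 0.96 without the first flox Veh library, under 2-fold, and in flox Cre cells 78.6 and 65 and then 217 and 193 (1.51, adjusted p = 6.8e-22). In WT cells the region at chr7:43579948-43580171 rose from 9.46 and 9.17 to 44.6 and 51.7 (2.36, SE 0.40, adjusted p = 2.1e-05), and in NKO cells the region at chr7:43579423-43579705 rose from 0 and 5.80 to 22.3 and 21.5 (2.77, adjusted p = 0.001). No Veh and KLA libraries overlapped in these comparisons. The region printed for NKO cells was also called in WT cells. That WT call was lost without the first or second WT Veh library, at changes of 2.16 and 2.31. Zfp800 was called higher in 4 of the 5, from 268 and 299 to 683 and 624 in flox cells (1.21, SE 0.08, adjusted p = 2.7e-48), from 223 and 216 to 641 and 639 in flox Cre cells, and from 39.1 and 53.4 to 95.04 and 95.8 in NKO cells (1.03, adjusted p = 0.002, and 0.84 without the first NKO Veh library). In WT cells it held 49.8 and 41.8 and then 90.5 and 66.9, a change of 0.79 that stayed under 2-fold. Zfp456 rose from 41.0 and 22.9 to 88.2 and 92.4 in flox cells (1.47, SE 0.23, adjusted p = 8.5e-10) and from 21.8 and 22.6 to 88.1 and 83.4 in flox Cre cells (1.95, adjusted p = 4.6e-14), without overlap.

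Zfp558, another KRAB gene, rose in DMSO from 83.1 and 72.4 to 188 and 135 (1.06, adjusted p = 2.2e-05) and in WT from 8.20 and 13.2 to 27.7 and 37.9 (1.59, adjusted p = 0.004), where the call was lost without the second WT KLA library (adjusted p = 0.0654) or the first WT Veh library (adjusted p = 0.12). In NKO cells its region held 25.8 and 26.7 with Veh and 20.7 and 21.5 with KLA, so the vehicle level there was already near the WT level with KLA. The difference between both responses was not called. Zfp282 was the one Zfp region lower in WT, from 20.2 and 23.4 to 8.80 and 6.204 (−1.53, adjusted p = 0.019). Its call was lost without the second WT KLA library (adjusted p = 0.133) and without the first or second WT Veh library (adjusted p = 0.0719 and 0.155).

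Among the losses, Zfp516 had one of the steepest, from 354 and 315 to 88.8 and 86.2 in flox cells (−1.94, SE 0.13, adjusted p = 1.8e-46), from 242 and 239 to 65.01 and 89.9 in flox Cre cells (−1.63, adjusted p = 1.2e-29) and from 61.9 and 69.6 to 12.7 and 11.1 in NKO cells (−2.45, adjusted p = 7.3e-07). KLA libraries lay below every Veh library in each. Zfp367 fell from 214 and 239.7 to 64.9 and 76.3 in flox cells (−1.68, adjusted p = 3.9e-26), and Zfp788 from 237 and 222 to 103 and 96.8 (−1.20). Zfp740 fell in flox Cre cells from 307 and 308 to 129 and 124 (−1.28, adjusted p = 7.2e-28). In DMSO, Zfp704 fell from 51.5 and 68.0 to 12.95 and 16.8 (−2.01, SE 0.33, adjusted p = 1e-08) and Zfp386 from 183 and 172 to 72.5 and 71.5 (−1.30, adjusted p = 1.5e-07). Zfp326 fell in flox cells from 289 and 267 to 129 and 146 (−1.02, SE 0.12, adjusted p = 1.2e-15) and in flox Cre cells from 200.2 and 224 to 107 and 107 (−0.99), just under 2-fold. The flox value came to −0.93 without the first flox KLA library and −0.96 without the first flox Veh library, so that Zfp326 was then not called there either.

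Between the DMSO and the flox experiment, which share no library, 219 windows were tested in both. All 3 windows higher in flox cells were among the 5 higher in DMSO. Of the lower windows, 7 were common, 38.9% of the 18 in DMSO and 33.3% of the 21 in flox cells, whereas other promoters shared 67.9% and 58.4% of their lower calls (618 of 910 and of 1058). Whether this difference exceeds chance was not tested. Between flox and flox Cre cells 13 lower windows were common, 61.9% of 21 and 44.8% of 29.

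KRAB genes made up 10 of the 16 genes with a lower window in DMSO, 13 of 20 in flox and 16 of 25 in flox Cre cells, beside 110 of the 193 genes. Their windows had a median of −0.35 in DMSO against −0.16 for Zfp windows without KRAB, −0.42 against −0.28 in flox, and −0.54 against −0.28 in flox Cre cells. By level in DMSO, the Zfp medians rose from −0.48 in the lowest quartile through −0.23 and −0.20 to −0.04, and those of other promoters from −0.37 through −0.18 and −0.09 to 0.04.

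Deletion of NCoR changed few Zfp regions. With Veh, 2 of 215 were higher and none lower in NKO than in WT cells, beside 0.31% higher and 0% lower at other promoters and 0.973% and 0.027% over all regions, with medians of 0.32 and 0.27. They were Zfp3, at 27.7 and 26.5 in WT and 62.7 and 63.3 in NKO cells (1.22, SE 0.29, adjusted p = 0.017), and Zfp219, at 13.2 and 12.7 and then 33.2 and 36.6 (1.42, adjusted p = 0.048). The groups did not overlap, but both calls were lost with TMM and DESeq2. Leaving out any 1 of the NKO Veh and WT Veh libraries also ended both, at adjusted p from 0.0551 to 0.292 for Zfp3 and from 0.121 to 0.363 for Zfp219. The 1 Zfp region called without the second NKO Veh library was neither of them, and none was called without any of the other 3. With KLA, edgeR called no Zfp region and DESeq2 none, 16 had an unadjusted p under 0.05, and 0.4% and 0.389% of all regions were higher and lower. The response to KLA differed at no Zfp region by edgeR or DESeq2, 25 had an unadjusted p under 0.05, and 0.027% and 0.67% of all regions were called.

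Deletion of PGC1b, a transcriptional coactivator, left no Zfp window called with Veh by edgeR or DESeq2, although 119 had an unadjusted p under 0.05 at a median of −0.33 against −0.29 for other promoters. Over all regions 0.107% were higher and 0.29% lower. Without either flox Cre Veh library, or without the second flox Veh library, 2 were called. With KLA, 6 windows of 5 genes were lower and none higher, where 0.702% and 6.81% of all regions were, and TMM and DESeq2 left none. Without the first or second flox Cre KLA library 11 and 10 were called. Zfp821 held 219 and 232 tags in flox KLA and 98.2 and 103 in flox Cre KLA (−1.16, SE 0.14, adjusted p = 1.2e-14), Zfp157 held 52.7 and 49.0 and then 25.3 and 22.1 (−1.10, adjusted p = 0.00013), and Zfp281 held 192 and 206 and then 118 and 134 (−0.66, adjusted p = 2.6e-05, under 2-fold). None of these groups overlapped.

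Zfp275, on the X chromosome (chrX:73342162-73343162), was the one Zfp window whose KLA response differed between both genotypes, where 0.77% and 4.6% of all regions differed upwards and downwards. It held 52.7 and 56.8 with Veh and 52.7 and 72.6 with KLA in flox cells, which overlapped, and 48.0 and 76.3 and then 25.3 and 27.4 in flox Cre cells, which did not. The difference in response was −1.43 (SE 0.34, adjusted p = 0.00048), and −1.24 with TMM (adjusted p = 0.005). Without the second flox Cre Veh library it was −1.06 and no longer called (adjusted p = 0.0548). The number of Zfp windows called for this difference ran from 1 to 4 when any 1 library was left out, the highest without the second flox KLA library.

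Peaks of factors at Zfp promoters responded to KLA in both directions. NCoR was higher at 4 and lower at 17 of 121 peaks, 3.31% and 14.0%, against 8.72% and 12.1% at other promoters and 23.4% and 16.7% of all 55045 peaks. HDAC3 was higher at 7 and lower at 10 of 107, against 9.75% and 6.39% at other promoters and 27.5% and 11.3% of all. The median was −0.37 for NCoR against −0.17 at other promoters, and 0.04 against 0.00 for HDAC3. Without either NCoR KLA library 3 peaks were called, and without either HDAC3 Veh library 1.

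p65 was higher at 16 peaks and lower at 21 of 130, against 16.97% and 15.2% at other promoters and 57% and 5.43% of all peaks, and without either KLA library 10 were called. The p65 split depends on the scaling, since TMM gave 2 higher and 97 lower. p300 was higher at 5 and lower at 27 of 111, against 10.6% and 18.9% at other promoters and 42.1% and 12.9% of all peaks, with TMM giving 3 and 55, and without the first or second KLA library 14 and 15 were called.

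PU.1 was higher at none and lower at 7 of 120 peaks, where 4.53% and 21.7% of all peaks changed, and TMM gave 1 higher and 3 lower. PGC1b was higher at 2 and lower at 4 of 86 (all peaks 16.4% and 6.35%), with 14 called without the second KLA library and 2 without either Veh library. Fosl2 was higher at 1 and lower at 3 of 47 (all peaks 11.4% and 4.19%), with 7 and 19 called without the first and second KLA library and none without either Veh library. ERK1 was higher at none and lower at 1 of 73 (all peaks 10.3% and 2.53%), with none called without the second KLA library, and 2 and 3 without the first and second Veh library.

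**Figure D5:**
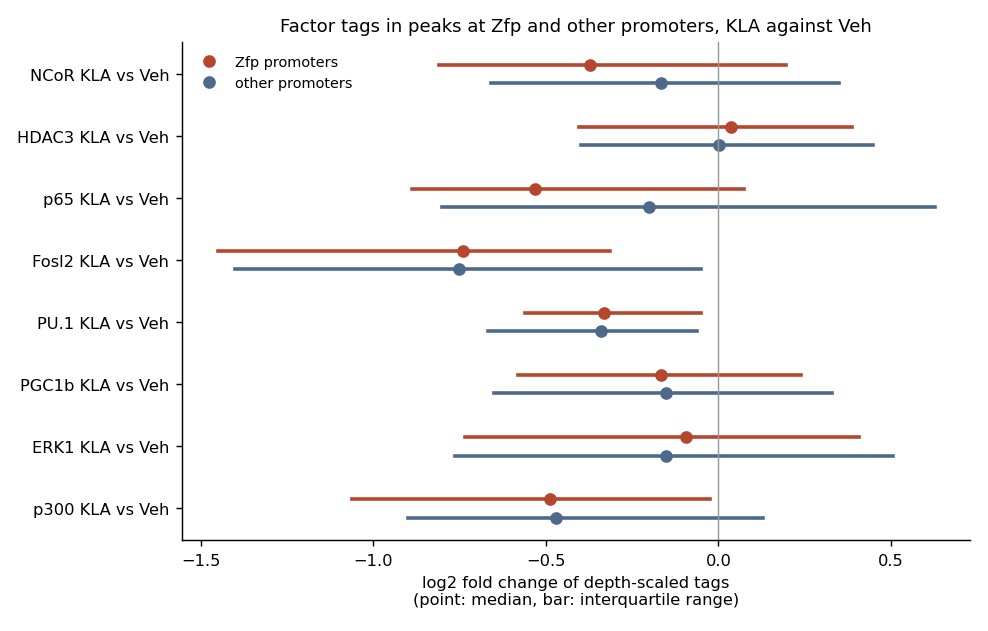
Median (point) and interquartile range (bar) of the log2 fold change, KLA over Veh, in peaks at Zfp and other promoters for 8 factors. The NCoR and p65 medians lie lower at Zfp promoters, −0.37 against −0.17 and −0.53 against −0.20, and the other 6 pairs lie close together.

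The promoter of Zfp719 gained most factors, at a peak about 400 bp inside the gene. Here p300 rose from 8.15 and 9.86 tags to 119 and 131 (3.79, SE 0.29, adjusted p = 1.7e-08), and p65 from 12.3 and 22.4 to 188 and 203 (3.498, SE 0.31, adjusted p = 6.2e-06). NCoR rose from 87.2 and 63.6 to 167 and 136 (1.00, adjusted p = 0.008), HDAC3 from 68.4 and 67.5 to 138 and 186 (1.24, adjusted p = 0.003), and Fosl2 from 25.4 and 19.9 to 79.1 and 148 (2.33, adjusted p = 0.042). All KLA libraries were above all Veh libraries for each of the 5, and the p65, p300 and Fosl2 rises kept their call with TMM, as did that of H3K27ac. The Fosl2 call was lost without the first or second Veh library, at changes of 2.51 and 2.16. At its peak near the start of Zfp719, Fosl2 changed by 0.09 (adjusted p = 0.95). PGC1b of the first experiment went there from 59.3 and 60.0 to 79.7 and 50.3 (0.10, adjusted p = 0.85).

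Zfp456 gained NCoR, HDAC3 and PGC1b at a peak about 350 bp before its start. NCoR was near absent with Veh, at 0 and 3.53, and at 50.2 and 77.5 with KLA. That is 3 against 174 tags and a ratio of 36.5 (95% counting interval 12.3 to 179). Peaks of Veh and KLA were merged, so such a region can be present through a single group, and the ratio is descriptive only. HDAC3 rose from 8.73 and 9.40 to 63.9 and 100.1 (3.13, SE 0.48, adjusted p = 2.1e-09) and PGC1b from 3.53 and 2.79 to 28.4 and 21.2 (2.94, adjusted p = 0.002). No groups overlapped. p65 rose at a second peak from 33.3 and 46.6 to 86.2 and 129 (1.43), which TMM reduced to 0.21. Zfp384, a transcription factor, gained p65 from 0 and 4.66 to 98.2 and 95.8 at a peak 448 bp inside the gene, while its H3K27ac window was not called with KLA.

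Losses fell at a recurring set. At Zfp326, NCoR went from 63.3 and 53.0 to 12.2 and 16.6 (−2.00, SE 0.40, adjusted p = 0.003) and HDAC3 from 90.2 and 60.3 to 23.4 and 31.6 (−1.49, adjusted p = 0.002), without overlap, and p65 and p300 were called lower too. Single libraries decided these calls: NCoR was lost without the first KLA library (adjusted p = 0.05), HDAC3 without the first or second Veh library (adjusted p = 0.324 and 0.0907), p65 without either KLA library (adjusted p = 0.243 and 0.173) or the second Veh library, and p300 without the second KLA library (−0.57, adjusted p = 0.329) or the second Veh library. At Zfp395, PU.1 went from 99.3 and 81.5 to 15.7 and 14.7 (−2.58, SE 0.22, adjusted p = 3.6e-21) and p300 from 35.1 and 39.4 to 4.09 and 10.8 (−2.32, adjusted p = 0.0005), and p65 and PGC1b were lower. At Zfp704, PGC1b went from 27.03 and 20.9 to 3.28 and 1.72 (−3.33, adjusted p = 0.001), and NCoR, PU.1 and H3K27ac were lower. Zfp653 had the lowest p among p65 losses, from 159 and 156 to 64.8 and 55.4 (−1.39, adjusted p = 0.00048). Fosl2 at Zfp275 went from 26.8 and 19.9 to 0 and 1.17, 38 against 1 tag and a ratio of 0.034 (95% counting interval 0.00084 to 0.202). That call was lost without either Veh library. ERK1 at Zfp292 went from 25.2 and 24.3 to 0 and 1.36, 37 against 1 tag and a ratio of 0.0262 (0.000646 to 0.155). The ERK1 call was lost without the first or second KLA library or the second Veh library, at changes of −4.02, −7.26 and −4.95.

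Over the 14 comparisons of KLA with vehicle, Zfp719 was called higher in 11, Zfp456 in 7 and Zfp800 in 6, with libraries scaled to their totals. Losses recurred as well: 3 Zfp genes, Zfp13, Zfp326 and Zfp704, were called lower in at least 6. Zfp13 was lower in 4 H3K27ac and 2 factor comparisons. In at least 1 comparison 22 Zfp genes were higher and 85 lower, and in at least 2 these were 10 and 40. Such counts for other genes are not given here.

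In the second PGC1b experiment, 3 of 108 peaks were higher with KLA in DMSO and none lower, where 16.4% and 1.23% of all peaks were, at a median of 0.22 against 0.33 for other promoters. TMM gave 3 higher and 2 lower. PGC1b at Zfp36 held 40.6 and 48.1 with Veh, 138 and 174 with KLA, and 102 and 91.8 with KLA and ERKi (KLA change 1.83, adjusted p = 0.00067), and the groups did not overlap. At Zfp719 it held 11.4 and 11.7, then 75 and 68.5, then 64.1 and 69.8. With ERKi, edgeR called no Zfp peak of PGC1b and DESeq2 none, 12 had an unadjusted p under 0.05, and 0.108% and 0.178% of all peaks were higher and lower.

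NCoR with ERKi was lower at 44 of 125 Zfp peaks and higher at none, 35.2% against 34.6% lower at other promoters, and 48.6% lower and 0.634% higher over all peaks. The median was −1.02 against −0.94. The ERKi libraries carry another library date than the NCoR KLA libraries, so the date and the inhibitor cannot be told apart. TMM left 1 lower, and without the first or second KLA library 16 and 17 were called. At the Zfp456 peak at its start NCoR held 94.4 and 87.1 with Veh, 149 and 178 with KLA and 33.0 and 49.99 with ERKi (−1.98, adjusted p = 0.00017), and with TMM −0.81 (adjusted p = 0.072).

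During osteoclast differentiation, p300 was higher at 13 of 38 Zfp peaks at day 4 than at day 0 and lower at 1, where 20.6% of other promoters were higher and 62.2% and 0.248% of all peaks were higher and lower. The median was 0.84 against 0.83. TMM turned this to 1 higher and 4 lower, and without the first or the second day 4 library none was called. At Zfp219 p300 went from 0.879 and 0 to 27.4 and 36.3, 1 against 60 tags and a ratio of 50.6 (95% counting interval 8.75 to 2033). At a peak 487 bp inside Zfp710 it went from 23.7 and 31.9 to 6.85 and 10.2 (−1.66, adjusted p = 0.035). Another Zfp710 peak, 230 bp before the start, moved the other way, from 24.6 and 0 to 37.2 and 43.1 (1.42, adjusted p = 0.12), and was not called. ERK1 was higher at 1 of 41 Zfp peaks, that of Zfp672 with 2.58 and 4.20 at day 0 and 74.7 and 20.3 at day 4 (3.76, adjusted p = 0.033), where 2.33% and 0.0267% of all peaks were higher and lower. TMM left none, without the first day 0 library 3 were called, and without either day 4 library none. The second day 4 library of ERK1 is described as replicate 3 and carries another date than its partner.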

How the data were processed

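ChIP-seq was made from mouse BMDM and bone marrow cells; chromatin for H3K27ac was fixed by formaldehyde alone, and that for factors by disuccinimidyl glutarate first. The authors mapped single-end reads to mm10 with Bowtie2 and deposited tables of raw tag counts per region, made with HOMER with at most 3 tags kept per position. Tool versions and the handling of reads that map to several places are not given in the sources used here. H3K27ac was counted in 1000-bp windows or, for WT and NKO, within ATAC peaks; factors were counted within their merged peaks. The 30 input samples were not analysed here, and the tables hold no columns of other samples.

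Counts were tested with edgeR 4.0.16 (R 4.3.3; glmQLFit and glmQLFTest, two-sided), 1 fit per table with all its groups, library sizes set to the totals in the column headers and no further scaling. Regions with at least 16 tags (H3K27ac) or 4 tags (factors) in 1 library or more were tested. Calls needed an adjusted p under 0.05 (Benjamini-Hochberg, over the whole table) and more than a 2-fold change. The members, gene lists and tests were chosen with earlier results of these data known. Zfp promoters are described by counts and medians beside those of other promoters and all regions, with no test over the list. Named were the called Zfp regions with the lowest p-values (up to 3 in each direction for H3K27ac, 1 for factors) and genes of known role, and the promoters whose calls recurred, the chromosome 17 group, Zfp395, Zfp692, Zfp704 and further examples were named after their values were seen. KRAB and finger patterns were matched in translated GENCODE models, promoter sequences came from RefSeq, and repeated 50-base stretches were found by exact match in the genome. The test was also run on simulated counts with 200 changed regions, for the comparison of RGFP966 KLA with DMSO KLA alone. Those counts were drawn from edgeR's own estimates of spread, so they cannot show how well its model fits the data. Intervals of tag ratios are exact binomial and cover counting error only. The ratios are for merged peaks, which can be present through a single group, and were printed for regions named by p-value. Neither ratios nor intervals allow for that selection. Alternatives were TMM scaling in edgeR, DESeq2 1.42.0, no filter, a replicate block, other promoter definitions and leaving out each library. Totals of 4.30 to 21.5 M tags limit sparse regions most.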

Additional observations from a re-analysis of the deposited data

Results flagged for a closer look

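Of the Zfp promoter regions named in the report, 1 result was flagged because the response to KLA differed between genotypes by a test of the difference itself. At the Zfp275 promoter the H3K27ac response in Pgc1b flox cells with LysMCre differed from that in flox cells by a log2 value of −1.43 (SE 0.34; adjusted p = 0.00048 in edgeR's test). Without the second flox Cre Veh library it was −1.06 and not called (adjusted p = 0.0548). Both KLA libraries with Cre lay below all other libraries of the table at this window. It was 1 of 227 Zfp windows tested for such a difference. Over all 25197 regions tested, 0.77% differed upwards and 4.6% downwards.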

How the results depend on the processing

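A count is said to move when it changed by over 1.5 times. DESeq2 moved 15 of the counts, TMM over all regions 13 and TMM over promoters 5, and leaving out 1 library moved many as well. Of 84 calls at named promoters, DESeq2 lost 22 that kept their sign and turned the sign of 4 more. TMM over all regions lost 23 that kept their sign and turned the sign of 3 more. With TMM over promoters 21 of the H3K27ac calls were lost and with the replicate block 10, and 89 of the fits without 1 library lost a call. With TMM over all regions the count was 89 with RGFP966, 0 for NKO against WT with Veh, 13 with KLA in flox and 13 in flox Cre cells, and 0 for flox Cre against flox with KLA; among factors it was 99 for p65, 4 for PU.1, 3 for ERK1, 58 for p300, 5 for PGC1b in DMSO, 1 for NCoR with ERKi, and 0 and 5 for ERK1 and p300 at day 4. TMM over promoters gave 13 with RGFP966, 0 for NKO against WT with Veh, 13 and 11 with KLA in flox and flox Cre cells and 0 for flox Cre against flox with KLA. DESeq2 gave, in the order of the first list, 82, 0, 13, 13 and 0, and for the factors 98, 4, 2, 51, 6, 2, 0 and 3, with 5 and 6 for KLA in WT and NKO cells. For NKO against WT with Veh, fitting only the groups compared gave 6 and 1 region per gene gave 1. Replicate numbers did not pair the samples: over 31 pairs their deviations correlated between −0.0266 and 0.0255. The replicate block gave 47 calls with RGFP966, 1 for NKO against WT with Veh, 0 for Fosl2 and ERK1 and 3 for p300 at day 4, and moved no other count by over 1.5 times. Without 1 library in turn the counts ran from 33 to 67 with RGFP966, 17 to 36 for KLA in DMSO, 1 to 11 in WT, 6 to 9 in NKO, 19 to 27 in flox and 30 to 36 in flox Cre cells, 0 to 1 for NKO against WT and 0 to 2 for flox Cre against flox with Veh, 6 to 11 for the latter with KLA, and 1 to 4 for its interaction. For factors they ran from 3 to 30 for NCoR, 1 to 24 for HDAC3, 10 to 47 for p65, 0 to 19 for Fosl2, 7 to 10 for PU.1, 2 to 14 for PGC1b, 0 to 3 for ERK1, 14 to 35 for p300, 16 to 43 for NCoR with ERKi, 0 to 3 for ERK1 and 0 to 19 for p300 at day 4. The median difference from other promoters ran from 0.0798 to 0.176 with RGFP966 and from −0.1195 to −0.025 with KLA in flox cells. Of the named promoters, 4 turned sign, each near 0: for NCoR with ERKi, Zfp106 to 0.0483 (TMM) and 0.0618 (DESeq2), Zfp568 to 0.13 and 0.15 and Zfp384 to 0.0094 (DESeq2), and for p300 at day 4, Zfp341 to −0.31 and −0.20. Alternatives for named promoters other than TMM, and the block for the median difference, were chosen after seeing the data. The cause of these shifts was not tested. Depth limits peaks with few tags.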
